A study of Mus musculus with 17 samples.

Results

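Expression of 10 genes of the non-fibrillar collagens was followed in the left ventricular apex of mice after transverse aortic constriction (TAC). The genes were chosen by symbol, 10 of the 21798 gene symbols in the table, and code for chains of collagen VI (Col6a1, Col6a2, Col6a3, Col6a6), VIII (Col8a1, Col8a2), XII (Col12a1), XIV (Col14a1), XV (Col15a1) and XVI (Col16a1). All 10 passed the filter on low values, a CPM (counts scaled to the library total) of at least 0.5 in at least 3 libraries, which left 16218 genes for testing. RNA was sequenced from 17 libraries, 1 per mouse, of male C57Bl6/J mice that were 7 to 8 weeks old at surgery and were killed 3 weeks later. The TAC operation narrows the aortic arch and loads the left ventricle with pressure, and Sham mice had the operation without the constriction. From 1 week after surgery, mice were gavaged 6 times over 2 weeks with 50 µg/kg 29P, an orally available RGD mimetic specific to αvβ3-integrin, or with saline (Veh). There were 5 Sham Veh and 6 TAC 29P mice, and 3 mice each in the Sham 29P and TAC Veh groups. Libraries are named by the S number in their labels.

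Non-fibrillar collagens do not build the thick fibres of types I and III but organise the matrix around them. Collagen VI forms beaded microfilaments near the basement membrane, made of an α1, an α2 and a long chain, which is α3 or one of its relatives such as α6. Collagen VIII is a short-chain, network-forming collagen known from vessel walls and from remodelling tissue. Collagens XII, XIV and XVI are FACITs, which attach to fibril surfaces or to other matrix through interrupted triple helices, and collagen XV is a multiplexin that sits between basement membranes and fibrils. In the heart these chains come mostly from fibroblasts and vessel-associated cells, and bulk RNA does not tell more producing cells from more RNA per cell.

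The promoter sequences of 4 members are shown because these genes carry the contrasts below, Col8a1 and Col8a2 as paired chains with large changes, Col6a1 as a rising collagen VI chain and Col6a6 as the chain that moved the other way. The 250 bases before the RefSeq start (GRCm38.p6) are printed 5′ to 3′ on the gene's strand, and capitals mark matches of the motifs searched on both strands.
Col8a1 (chr16:57754738-57754987, minus strand): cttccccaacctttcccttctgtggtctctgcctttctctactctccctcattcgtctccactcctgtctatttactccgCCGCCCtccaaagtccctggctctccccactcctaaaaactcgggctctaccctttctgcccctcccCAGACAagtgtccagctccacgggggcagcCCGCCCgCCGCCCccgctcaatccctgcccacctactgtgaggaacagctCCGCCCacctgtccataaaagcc
Col8a2 (chr4:126286544-126286793, plus strand): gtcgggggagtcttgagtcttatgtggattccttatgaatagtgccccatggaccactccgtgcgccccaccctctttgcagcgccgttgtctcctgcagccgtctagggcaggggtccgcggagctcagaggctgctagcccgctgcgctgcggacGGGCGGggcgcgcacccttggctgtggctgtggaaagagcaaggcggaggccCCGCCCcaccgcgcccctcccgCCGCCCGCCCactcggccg
Col6a1 (chr10:76726045-76726294, minus strand): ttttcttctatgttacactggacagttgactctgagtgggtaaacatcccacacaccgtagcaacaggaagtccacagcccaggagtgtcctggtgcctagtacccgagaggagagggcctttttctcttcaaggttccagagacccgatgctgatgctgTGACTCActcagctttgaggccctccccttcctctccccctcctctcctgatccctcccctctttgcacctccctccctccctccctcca
Col6a6 (chr9:105828086-105828335, minus strand): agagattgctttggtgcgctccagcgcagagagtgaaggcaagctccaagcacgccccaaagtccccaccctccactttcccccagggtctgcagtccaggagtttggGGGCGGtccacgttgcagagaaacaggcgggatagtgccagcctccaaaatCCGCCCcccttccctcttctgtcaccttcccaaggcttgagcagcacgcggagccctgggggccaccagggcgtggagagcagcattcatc

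The motifs searched were the TATA box (TATAAA), the CAAT box (CCAAT), the GC box known from Sp1 binding (GGGCGG), the AP-1 type site (TGANTCA), the TEAD type site (CATTCC), the Smad type site (CAGACA) and the CArG box, and 8 of the 10 members had a window, while Col12a1 and Col14a1 had none in the table used. GGGCGG (printed as CCGCCC where it lies on the other strand) matched at 4 places in Col8a1 and at 4 in Col8a2, of which 2 overlapped, and at 2 places in Col6a6, against 32.7% of all 32851 windows of this length with at least 1 match. Col6a1 held TGANTCA (6.75% of all windows) 90 bases before the start and no GGGCGG. Col8a1 also held CAGACA (17.1% of all windows) 103 bases before the start. No member window held TATAAA (12.4% of all windows) or a CArG box (1.47%). GGGCGG also lay in the windows of the rising Col6a2 and Col16a1, and not in those of the rising Col6a3 and Col15a1. The 4 windows printed were 56 to 70% G or C, against a median of 52.4% over all windows. The chain that fell and the paired chains that rose held the same GC-rich hexamer, and these matches describe the windows and no more.

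Depth, estimated from the step between low CPM values, was 14.2 to 23.8 M reads per library. Mitochondrially encoded transcripts took 29.1 to 40.0% of the CPM in Sham and 23.6 to 29.4% in TAC libraries. The cardiomyocyte markers (6 of 6 measured) summed to at least 24490 CPM in every library. Atrial transcripts stood out in 3 libraries, S18 (TAC 29P), S19 and S20 (both Sham Veh), where the atrial light chain Myl7 was at 335, 895 and 723 CPM, against 1.0 CPM or less in the other 14. The authors removed 3 further libraries before deposit, among them 1 TAC Veh library that clustered with Sham, which is not analysed here. That removal was based on expression. The comparisons of TAC Veh with Sham Veh and with TAC 29P are conditional on it, and its effect on them was not tested.

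Levels were compared between genes as CPM per kilobase of annotated exon. In Sham hearts (n = 8) Col6a1 and Col15a1 stood highest, at 12.7 ± 4.0 and 10.9 ± 3.9 (mean ± SD), followed by Col6a2 at 6.27 ± 2.24, Col8a1 at 4.18 ± 0.95, Col6a3 at 2.71 ± 0.95 and Col14a1 at 1.72 ± 0.43. Col6a6 (0.661 ± 0.250), Col16a1 (0.478 ± 0.168), Col8a2 (0.112 ± 0.075) and Col12a1 (0.0855 ± 0.0375) were the least abundant. The neighbours Col6a1 and Col15a1, Col6a2 and Col8a1, Col6a6 and Col16a1, and Col8a2 and Col12a1 differed by less than the larger SD of the pair and are not ordered. In TAC hearts (n = 9) Col6a1 (34.1 ± 6.9), Col15a1 (33.5 ± 7.5) and Col8a1 (25.2 ± 12.3) led, with the mean of Col8a1 now above that of Col6a2 (17.9 ± 4.1), by less than the SD of Col8a1. Col6a3 was at 6.47 ± 0.99, Col14a1 at 5.22 ± 1.86, Col16a1 at 1.82 ± 0.64, Col8a2 at 1.78 ± 1.5, Col12a1 at 1.19 ± 0.83 and Col6a6, now with the lowest mean, at 0.361 ± 0.180. Col6a3 and Col14a1, and Col16a1, Col8a2 and Col12a1, differed by less than the larger of their SDs, as did Col6a6 from both Col12a1 and Col8a2, and in S1 and S8 Col6a6 lay above Col12a1. With the length of the longest transcript in place of the exon union, Sham levels kept this order, but in TAC Col15a1 (41.1) and Col8a1 (38.7) then stood above Col6a1 (36.4), so the order of these 3 genes in TAC is not settled.

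**Figure D1:**
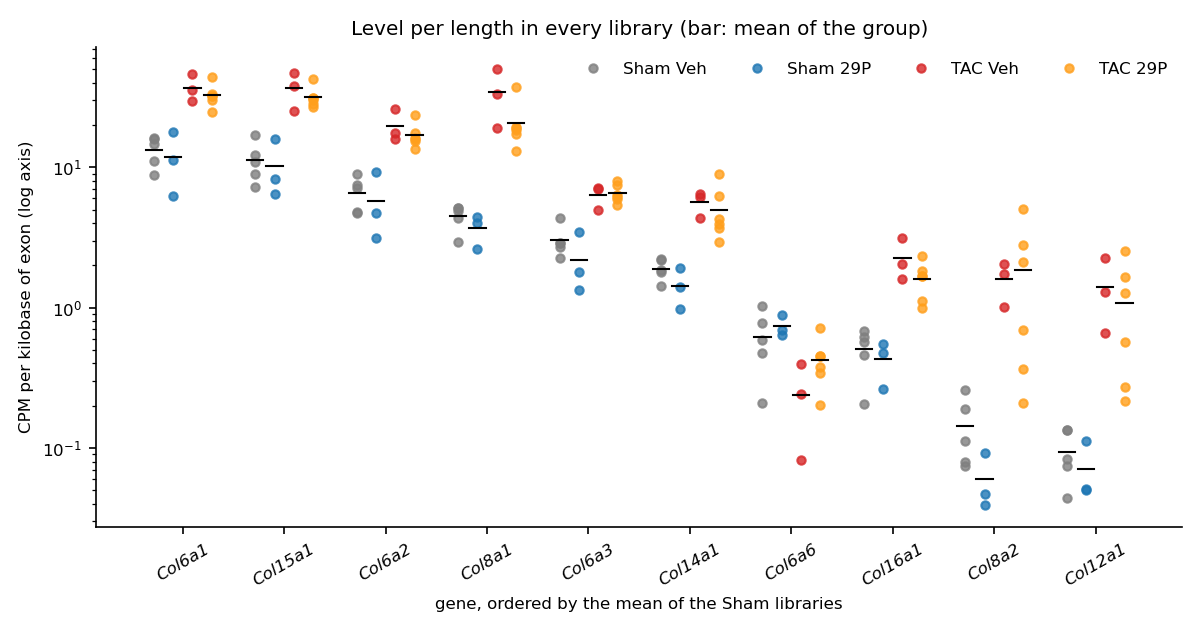
CPM per kilobase of exon (log axis) of the 10 genes in every library, coloured by group, with bars at group means and genes ordered by their Sham mean. Col6a1 and Col15a1 have the highest means in Sham and in TAC, Col8a1 moves up to them after TAC and stands above both in TAC Veh library S2 (50.3, against 47.0 for Col15a1 and 45.9 for Col6a1), and Col6a6 lies lower in TAC than in Sham.

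After TAC, 9 of the 10 genes were higher in Veh mice and Col6a6 was lower, each at an adjusted p of 0.05 or less (limma on log2 CPM, Benjamini-Hochberg over 16218 genes). The same 9 genes were higher in 29P-treated TAC mice than in Sham 29P mice, where Col6a6 did not pass. The comparison addresses how pressure overload altered collagen expression with and without 29P. Of all genes tested, 22.5% were called higher and 1.91% lower in TAC Veh against Sham Veh, and 31.4% higher and 1.12% lower in TAC 29P against Sham 29P. Over both treatments 49.4% of all genes were called higher and 3.08% lower. The median log2 fold change was 1.66 over the 10 genes and 0.35 over all genes in Veh mice, and 1.74 and 0.37 in 29P mice. The shift of all genes depended on scaling, since TMM factors brought its median to 0.01 in both comparisons and moved the all-gene calls from 3648 higher and 310 lower to 653 higher and 894 lower in Veh mice. In 29P mice they went from 5097 higher and 181 lower to 914 and 843, and over both treatments from 8011 and 499 to 2182 and 2189. The all-gene counts also moved with single libraries. In Veh mice 422 genes were higher without S2, 2071 without S16, 2233 without S6 and 2399 without S19, and in 29P mice 1039 without S14, 3202 without S3, 3389 without S15 and 679 with a term for the run of animal numbers. In these fits the members called higher stayed at 9 of 10 but for the Veh comparison without S2, where they were 7. With TMM factors the 9 genes stayed higher and Col6a6 lower in Veh mice, each past the adjusted threshold. The log2 rises in Veh mice were smaller in that fit, at 0.76 for Col6a3 (1.09 without the factors) and 3.50 for Col12a1 (3.83). The fall of Col6a6 was larger, at −1.78 (−1.44). Log2 fold changes of single genes below are without these factors unless stated. In 9 of the 10 genes the 3 TAC Veh libraries all lay above the 5 Sham Veh libraries, as in 27.6% of all genes. In the same 9 genes all TAC 29P libraries lay above all Sham 29P libraries, as in 25.0% of all genes. In 8 of the 10 all 9 TAC libraries lay above all 8 Sham libraries, as in 9.52% of all genes.

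**Figure D2:**
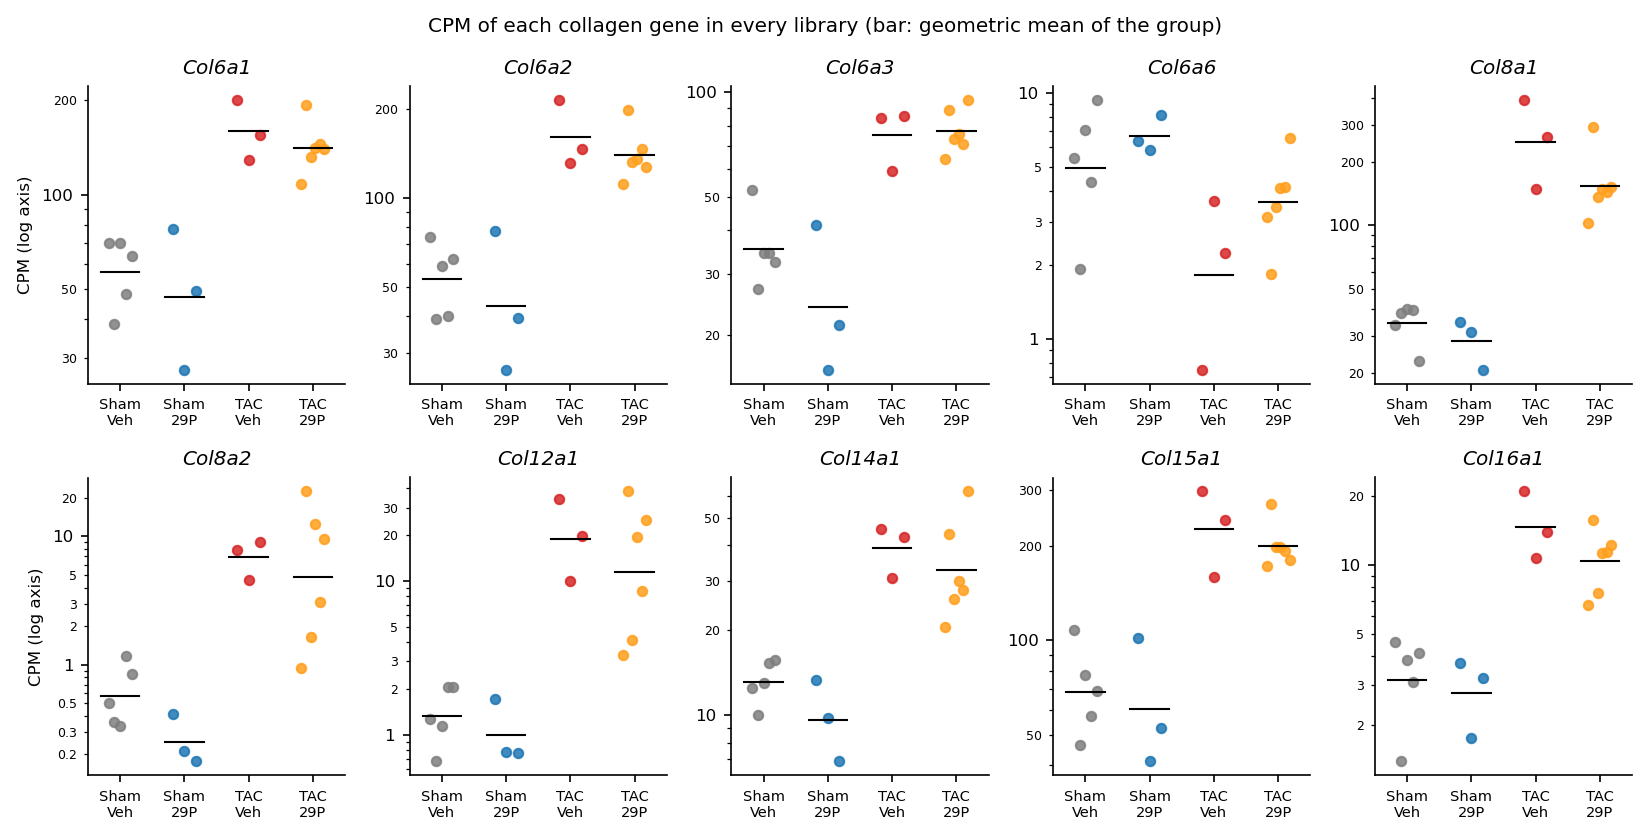
CPM (log axis) of each gene in every library of the 4 groups, with bars at the geometric mean. TAC libraries lie above Sham libraries in 8 panels without overlap, Col8a2 overlaps in 1 TAC 29P library (S1, 0.939 CPM), and Col6a6 runs the other way with overlap.

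The obligate collagen VI chains rose together. Col6a1 (chromosome 10, 76708792 to 76726168, minus strand, mm10), the α1 chain, was at 70.2, 38.6, 70.2, 48.3 and 63.8 CPM in the Sham Veh libraries S5, S6, S13, S19 and S20, and at 77.7, 27.6 and 49.4 CPM in the Sham 29P libraries S4, S14 and S15. It was at 201, 129 and 155 CPM in the TAC Veh libraries S2, S12 and S16. In the TAC 29P libraries S1, S3, S8, S9, S11 and S18 it was at 108, 194, 132, 141, 145 and 140 CPM. The TAC values thus lay above every Sham value, with S14 the lowest Sham library and S1 the lowest TAC library. TAC raised it by a log2 fold change of 1.49 (SE 0.27, limma adjusted p = 0.00272) in Veh and 1.58 (SE 0.26, limma adjusted p = 0.00179) in 29P mice.

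Col6a2 (chromosome 10, 76595762 to 76623630, minus strand), the α2 chain, lies beside Col6a1 in the genome. It ranged from 26.3 to 77.6 CPM in Sham and from 112 to 215 CPM in TAC libraries, with S14 and S1 again lowest and S2 highest. Its rise on the log2 scale was 1.60 (SE 0.29, limma adjusted p = 0.0025) in Veh and 1.69 (SE 0.28, limma adjusted p = 0.00168) in 29P mice. The log2 ratio of Col6a2 to Col6a1 stayed within −0.33 to 0.10 in all 17 libraries, so the 2 chains moved nearly in step, and its Sham and TAC ranges overlapped.

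Col6a3 (chromosome 1, 90765923 to 90843971, minus strand), the long α3 chain, was at 52.2, 27.2, 34.4, 34.4 and 32.4 CPM in Sham Veh (S5, S6, S13, S19, S20) and at 41.6, 15.9 and 21.4 CPM in Sham 29P (S4, S14, S15). In TAC Veh (S2, S12, S16) it was at 84.2, 59.2 and 85.3 CPM, and in TAC 29P it ranged from 64.2 (S1) to 95.2 CPM (S18) with a median of 74.5 CPM. No TAC library fell into the Sham range. Its log2 fold change of 1.09 in Veh mice (SE 0.25, limma adjusted p = 0.00808) was the smallest rise of the 9, and in 29P mice it was 1.68 (SE 0.24, limma adjusted p = 0.000886). Leaving out TAC Veh library S2, the rise in Veh mice was 1.01 with an adjusted p of 0.0631 in limma. The annotation places Gm36970 on the same strand within Col6a3, and the counting between them is not known.

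Col6a6 (chromosome 9, 105687809 to 105828160, minus strand), the α6 chain that can take the place of α3, was the exception. It was at 5.43, 1.92, 7.08, 4.33 and 9.39 CPM in Sham Veh (S5, S6, S13, S19, S20) and at 6.36, 5.85 and 8.09 CPM in Sham 29P (S4, S14, S15). It was at 0.748, 3.62 and 2.24 CPM in TAC Veh (S2, S12, S16) and at 3.13, 1.84, 3.44, 4.11, 4.13 and 6.55 CPM in TAC 29P (S1, S3, S8, S9, S11, S18). The groups overlapped, because Sham Veh library S6 was low and TAC 29P library S18 was high. The fall came to a log2 fold change of −1.44 with Veh (SE 0.50, limma adjusted p = 0.0439, exact two-sided permutation p = 0.0893). With 29P the difference was −0.89 (SE 0.48, limma adjusted p = 0.156), and over both treatments −1.17 (SE 0.35, limma adjusted p = 0.0105). The call in Veh mice was lost in 10 of the 17 fits that left out 1 library (S5, S13, S19, S20, S2, S16, S1, S8, S9 or S11), with log2 fold changes of −1.94 to −0.80 over all 17, lowest in size without S2. The libraries with atrial transcripts hold the highest Sham value (S20) and the highest TAC value (S18). Without those 3 the fall with Veh was −1.20 (limma adjusted p = 0.126), and the part of atrial tissue in it was not tested. Gm38314 lies on the opposite strand within Col6a6, and whether counting used strand is not stated. The log2 ratio of Col6a6 to Col6a3 was chosen with the values known and is given without a test. It was −3.82 to −1.40 in Sham and −6.81 to −3.86 in TAC libraries. These ranges did not overlap, but their ends nearly met.

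Both collagen VIII chains rose steeply. Col8a1 (chromosome 16, 57624258 to 57754737, minus strand), the α1 chain, was at 33.9, 38.5, 40.2, 39.9 and 22.9 CPM in Sham Veh (S5, S6, S13, S19, S20) and at 34.8, 31.3 and 20.6 CPM in Sham 29P (S4, S14, S15). It was at 394, 149 and 261 CPM in TAC Veh (S2, S12, S16) and at 102, 291, 136, 149, 144 and 153 CPM in TAC 29P (S1, S3, S8, S9, S11, S18). The lowest TAC library, S1 at 102 CPM, still lay above the highest Sham value of 40.2 CPM, and S2 and S3 stood above the rest. Col8a1 rose by 2.86 on the log2 scale with Veh (7.24-fold, SE 0.31, limma adjusted p = 0.000107) and by 2.45 with 29P (5.45-fold, SE 0.30, limma adjusted p = 0.000466), the smallest adjusted p of the 10 genes in both.

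Col8a2 (chromosome 4, 126286793 to 126314330, plus strand), the α2 chain, was barely detected in Sham. It was at 0.505, 0.358, 0.333, 1.16 and 0.849 CPM in Sham Veh (S5, S6, S13, S19, S20) and at 0.415, 0.212 and 0.176 CPM in Sham 29P (S4, S14, S15), which stand for an estimated 3 to 26 reads. It was at 7.83, 4.55 and 9.12 CPM in TAC Veh (S2, S12, S16). In TAC 29P it was at 0.939 (S1), 22.6 (S3), 1.65 (S8), 12.5 (S9), 3.09 (S11) and 9.57 CPM (S18), a 24.1-fold span within 1 group. TAC 29P libraries thus lay on both sides of the TAC Veh range, 3 below it and 3 above it. The rise was 3.60 on the log2 scale with Veh (SE 0.80, limma adjusted p = 0.00717) and 4.28 with 29P (SE 0.78, limma adjusted p = 0.0026), where S14 and S15 rested on about 3 reads each. Without S2 the change in Veh mice was 3.50, with a limma adjusted p of 0.0551. The log2 ratio of Col8a2 to Col8a1 spanned −7.21 to −4.75 in Sham and −6.76 to −3.58 in TAC libraries, with overlap, and its span within TAC 29P was as wide.

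Of the FACIT chains, Col12a1 had the largest rise. Col12a1 (chromosome 9, 79598991 to 79718831, minus strand), which links fibrils to other matrix and is known from loaded connective tissue, was at 1.26, 0.671, 1.14, 2.06 and 2.05 CPM in Sham Veh (S5, S6, S13, S19, S20) and at 1.71, 0.775 and 0.763 CPM in Sham 29P (S4, S14, S15). It was at 34.2, 10.03 and 19.6 CPM in TAC Veh (S2, S12, S16). In TAC 29P it was at 3.31 (S1), 38.4 (S3), 4.12 (S8), 19.4 (S9), 8.67 (S11) and 25.05 CPM (S18). Every TAC library stood above the Sham range, and within the 11.6-fold span of TAC 29P the libraries S1, S8 and S11 were lowest and S3 highest, as for Col8a2. Col12a1 rose by 3.83 on the log2 scale with Veh (14.2-fold, SE 0.68, limma adjusted p = 0.00223) and by 3.51 with 29P (11.4-fold, SE 0.66, limma adjusted p = 0.00302). Sham levels stood for an estimated 11 to 46 reads.

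Col14a1 (chromosome 15, 55307750 to 55520803, plus strand), a FACIT that binds fibril surfaces, ranged from 6.86 (S15) to 15.7 CPM (S20) in Sham and from 20.52 (S1) to 62.3 CPM (S18) in TAC libraries. TAC raised it by 1.57 on the log2 scale with Veh (SE 0.29, limma adjusted p = 0.00294) and by 1.76 with 29P (SE 0.28, limma adjusted p = 0.00153). The log2 ratio of Col12a1 to Col14a1 was −3.90 to −2.89 in Sham and −2.65 to −0.19 in TAC libraries and did not overlap. Like the ratio of Col6a6 to Col6a3, it is given without a test. The share of all gene pairs whose ratios separate in this way was not computed. The ratios of Col6a2 to Col6a1, Col6a3 to Col6a1 and Col8a2 to Col8a1 overlapped between Sham and TAC.

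Col16a1 (chromosome 4, 130047840 to 130099283, plus strand), a FACIT with many collagenous domains, ranged from 1.39 (S6) to 4.63 CPM (S5) in Sham and from 6.66 (S1) to 21.1 CPM (S2) in TAC libraries. Col16a1 rose by 2.21 on the log2 scale with Veh (SE 0.37, limma adjusted p = 0.00181) and by 1.90 with 29P (SE 0.36, limma adjusted p = 0.00306). Col15a1 (chromosome 4, 47208161 to 47313167, plus strand), the multiplexin of the basement membrane zone, ranged from 41.1 (S14) to 108 CPM (S5) in Sham and from 159 (S12) to 298 CPM (S2) in TAC libraries. Col15a1 rose by 1.72 with Veh (SE 0.28, limma adjusted p = 0.00158) and by 1.73 with 29P (SE 0.27, limma adjusted p = 0.00138). Neither gene had a TAC library within its Sham range. Antisense or overlapping transcripts are annotated on the opposite strand within Col12a1 (4930562D21Rik), Col14a1 (1700040F17Rik, Gm18787, Gm49257) and Col15a1 (Gm12426).

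Exact two-sided permutation of the libraries gave the smallest p possible, 0.0179 of 56 permutations, for each of the 9 genes that rose in Veh mice. In 29P mice it gave 0.0119, the smallest of 84 permutations, for 7 of them and 0.0238 for Col8a2 and Col12a1. Because these libraries did not overlap, each observed difference was the largest possible in its direction. The permutation p values thus largely restate the separation given above, seen in 27.6% of all genes in Veh and 25.0% in 29P mice. The animal numbers in the labels fall into 4 runs, and within each run the TAC libraries lay above the Sham libraries for each of these 9 genes. The share of all genes for which this holds was not computed, so the count is a description only. Run 1 held 6 TAC and 3 Sham libraries, and the other runs held 1 TAC library and 1 or 2 Sham libraries each. Col6a6 was lower in TAC in 3 runs, by log2 differences of −0.69, −0.83 and −1.85, and at 0.04 in the run that holds the libraries with atrial transcripts.

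**Figure D3:**
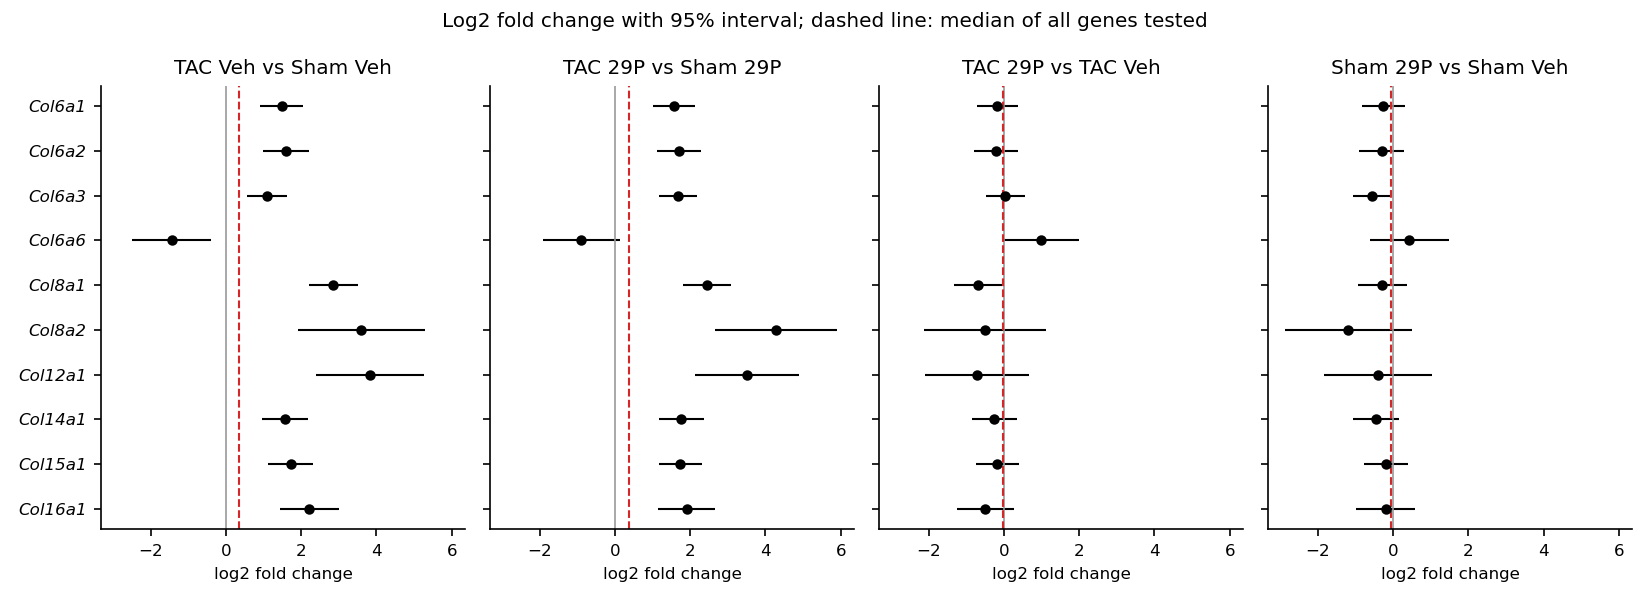
Log2 fold changes (points) with 95% intervals (lines) of the 10 genes in 4 comparisons, with the median of all genes tested as a dashed line. The TAC comparisons place 9 genes right of that line and Col6a6 left of 0, while in the 29P comparisons the intervals include 0 but for Col8a1 within TAC and Col6a3 within Sham.

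The next comparison asks whether 29P altered these collagens within TAC. Of the 10 genes, Col8a1 was lower at an unadjusted p of 0.05 or less, and none was higher, against 0.931% of all genes lower and 1.05% higher. No gene of the 16218 passed adjustment, with 170 higher and 151 lower at an unadjusted p of 0.05 or less in limma, and the adjusted p was 1 for each of the 10. Col8a1 stood at a mean of 268 ± 123 CPM (SD, n = 3) in TAC Veh and 162 ± 66 CPM (SD, n = 6) in TAC 29P. Its log2 fold change was −0.69 (SE 0.30, unadjusted limma p = 0.0334, exact two-sided permutation p = 0.179). Of the 6 TAC 29P libraries 4 lay below all 3 TAC Veh libraries, and S3 and S18 did not. The call was lost without S2 (log2 fold change −0.36), S16 (−0.66), S1 (−0.58) or S8 (−0.66). The study named Col8a1 from these same libraries as lowered by 29P, so its direction here is not independent evidence.

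Col6a6 ran the other way, at 2.20 ± 1.44 CPM (SD, n = 3) in TAC Veh and 3.87 ± 1.56 CPM (SD, n = 6) in TAC 29P. The log2 fold change with 29P was 0.98 (SE 0.48, unadjusted limma p = 0.0568, exact two-sided permutation p = 0.155). It passed the unadjusted threshold with TMM factors (1.01) and with a term for the animal-number run (1.51), and did not pass without S2, when the log2 fold change was 0.34. The run term lowered the log2 fold changes of the other genes, to −0.93 for Col8a1, −1.33 for Col12a1, −1.05 for Col8a2, −0.68 for Col16a1, −0.53 for Col14a1 and Col6a2, −0.44 for Col15a1, −0.37 for Col6a1 and −0.23 for Col6a3, and of these only Col8a1 passed the unadjusted threshold. Over all genes that fit called 129 higher and 286 lower. Without the run term, the other 8 genes did not pass. Their log2 fold changes were −0.73 for Col12a1 (95% interval −2.11 to 0.66), −0.51 for Col8a2 (−2.14 to 1.13), −0.50 for Col16a1 (−1.26 to 0.26) and −0.26 for Col14a1 (−0.86 to 0.33). They were −0.21 for Col6a2 (−0.79 to 0.38), −0.17 for Col6a1 (−0.73 to 0.38), −0.17 for Col15a1 (−0.75 to 0.40) and 0.04 for Col6a3 (−0.47 to 0.55). The intervals for Col8a2 and Col12a1 thus include both a more than 4-fold fall and a rise, while those of the collagen VI chains and Col15a1 are narrower. In run 1, where 5 TAC 29P libraries stand against the TAC Veh library S2 alone, 6 genes had all 5 below it, and Col6a6 had all 5 above it. S2 was the highest of all TAC libraries in 5 of the 9 rising genes, so these counts rest on that 1 library. The share of all genes with such a pattern was not computed.

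Red blood cell markers differed between the TAC groups before adjustment only. All 5 passed the unadjusted limma threshold of 0.05 as lower in TAC 29P, where 0.931% of all genes did, and none passed adjustment. These 5 calls come from the same libraries and are not independent of each other. The marker sums overlapped, at 3082 to 4992 CPM in TAC Veh and 1036 to 4151 CPM in TAC 29P. Of the 6 activated fibroblast markers 1 passed that unadjusted threshold as lower, and none passed adjustment. Their sums also overlapped, at 633 to 1689 CPM in TAC Veh and 291 to 1622 CPM in TAC 29P. The part of either in the collagen differences was not tested.

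Within Sham, the effect of 29P without pressure overload was examined. Col6a3 was lower at an unadjusted p of 0.05 or less and none of the 10 was higher, against 5.89% of all genes lower and 1.6% higher, and 1 of 16218 genes passed adjustment. Col6a3 was at 36.1 ± 9.5 CPM (SD, n = 5) in Sham Veh and 26.3 ± 13.5 CPM (SD, n = 3) in Sham 29P. Its log2 fold change was −0.55 (SE 0.25, unadjusted limma p = 0.0428, limma adjusted p = 0.656, exact two-sided permutation p = 0.214). The call was lost without S14 (−0.24), S15 (−0.46), S5 (−0.40), S13 (−0.56) or S19 (−0.56). Library S14 had the largest mitochondrial share, 40.0%, and the lowest depth, 14.2 M reads, and was the lowest Sham library for Col6a1, Col6a2, Col6a3 and Col15a1. Without S4, Col6a1 (−0.62), Col6a2 (−0.73) and Col14a1 (−0.68) were also lower at an unadjusted p of 0.05 or less in limma, in a fit that called 2424 of the 16218 genes lower, against 956 with all libraries. The difference of the 29P effect between TAC and Sham passed for none of the 10 genes at an unadjusted p of 0.05 or less in limma, with unadjusted p from 0.11 for Col6a3 to 0.972 for Col15a1, against 1.98% of all genes higher and 0.863% lower.

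The libraries differed among themselves in a shared way. Among the 9 TAC libraries, S1 was lowest in 7 of the 9 rising genes and S12 in the other 2, while S2 was highest in 5, S3 in 2 and S18 in 2. Averaged over these 9 genes, S1 lay 0.92 and S8 0.59 below the TAC mean on the log2 scale, and S3 lay 0.72 and S2 0.66 above it. Both extremes of TAC 29P therefore came from the same treatment and the same run of animal numbers. Among Sham libraries S14 was lowest in 4 genes, S15 in 3 and S6 in 2. S6 and S14 also had the largest mitochondrial shares of all libraries, 38.8 and 40.0%. Among TAC libraries, S1 had the largest share, 29.4%, and S2 the smallest, 23.6%. S9 went the other way, with a share of 28.7% and a mean 0.10 above the TAC mean. The part of RNA composition in these low and high values was not tested. The share of all genes with such an order of libraries was not computed.

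**Figure D4:**
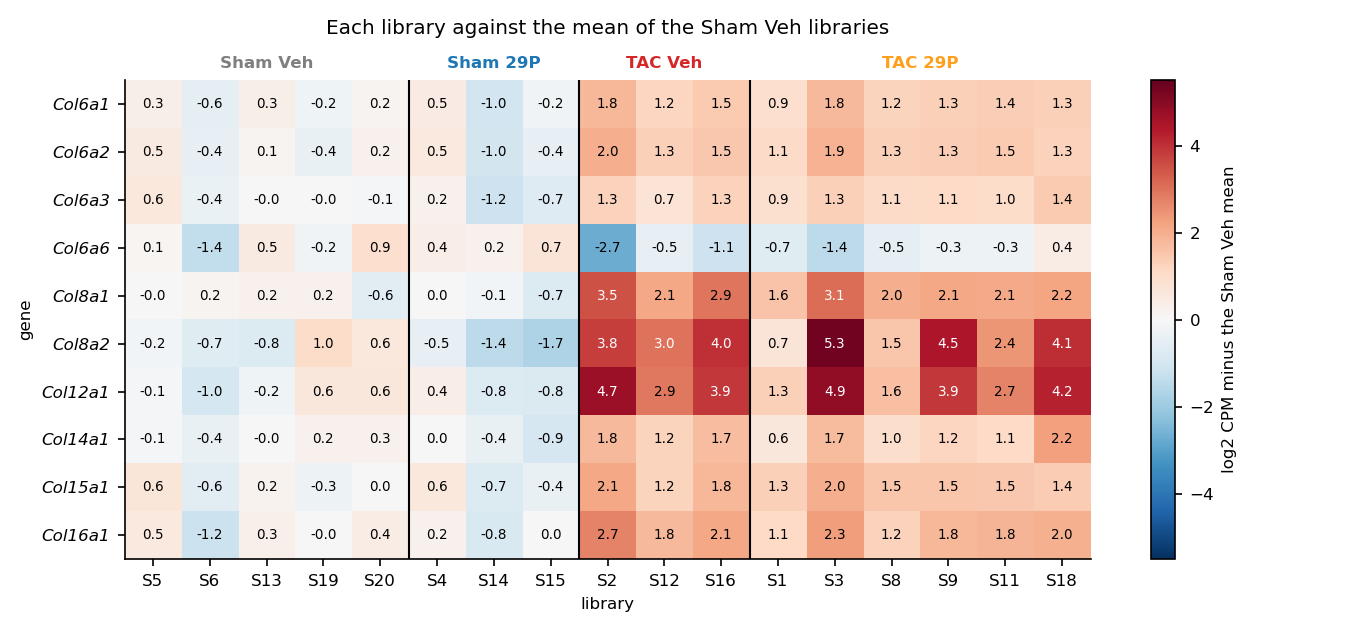
Log2 CPM of each gene in each library minus the mean of the Sham Veh libraries, written in the cells, with libraries grouped by treatment. Col8a2 and Col12a1 vary most within TAC 29P, from 0.7 and 1.3 in S1 to 5.3 and 4.9 in S3, and Col6a6 is negative in 8 of the 9 TAC libraries.

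After the 4 group means were taken out, 40 of the 45 pairs of genes had a positive Pearson correlation over the 17 libraries (median 0.52), given as a description since all genes share the libraries and their scaling. Col6a1 and Col6a2 had the highest, r = 0.96 (Spearman's rho 0.93), followed by Col8a2 and Col12a1, r = 0.95 (rho 0.90). Col6a2 and Col15a1 came next with r = 0.94 (rho 0.95). Col6a6 and Col8a1 had the lowest, r = −0.67 (rho −0.52), and were negative both within Sham (−0.55) and within TAC (−0.74). Among the 36 pairs without Col6a6 the lowest was 0.34, for Col8a1 and Col16a1. Some pooled values joined opposite signs. Col8a1 and Col16a1 had r = −0.31 within Sham and 0.89 within TAC, and Col6a6 and Col15a1 had 0.43 and −0.85. The share of all gene pairs with a positive correlation was not computed. Among Col8a2, Col12a1 and Col14a1 r was 0.76 to 0.95, and among Col6a1, Col6a2, Col6a3, Col15a1 and Col16a1 it was 0.71 to 0.96, groupings made with the values known.

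Of 14044 other genes with a mean CPM of at least 1, those whose deviations from the group means were most like each member were named by the same correlation. Thbs4, a thrombospondin of the stressed matrix, was first for both Col8a2 (r = 0.95) and Col12a1 (r = 0.96), with Comp, another thrombospondin, also near Col8a2 (r = 0.91). For Col12a1 the fibrillar Col1a2 was second (r = 0.95), followed by the lysyl oxidase relative Loxl3 (r = 0.94). Col3a1 was first (r = 0.94) and Col1a2 second (r = 0.92) for Col14a1. The collagen chaperone Serpinh1 was first for Col6a3 (r = 0.96), followed by Ube2f (r = 0.94) and Myh10 (r = 0.91). For Col6a1, Ctsa (r = 0.97) and Gosr2 (r = 0.97) came before the collagen endocytic receptor Mrc2 (r = 0.96). Ltbp3, a latent TGF-β binding protein, was first for Col16a1 (r = 0.96), Mta2 for Col6a2 (r = 0.97), Iffo2 for Col15a1 (r = 0.97) and Rap2b for Col8a1 (r = 0.88). Next came Dennd5a and Abhd2 for Col16a1, Nfkb2 and Arap1 for Col6a2, Myo1e and St3gal2 for Col15a1, and Nmrk2 and Tyms for Col8a1. For Col6a6 the GDNF family receptor Gfra1 was first (r = 0.92), with Lgi3 (r = 0.91) and Kcnn2 (r = 0.90) next.

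**Figure D5:**
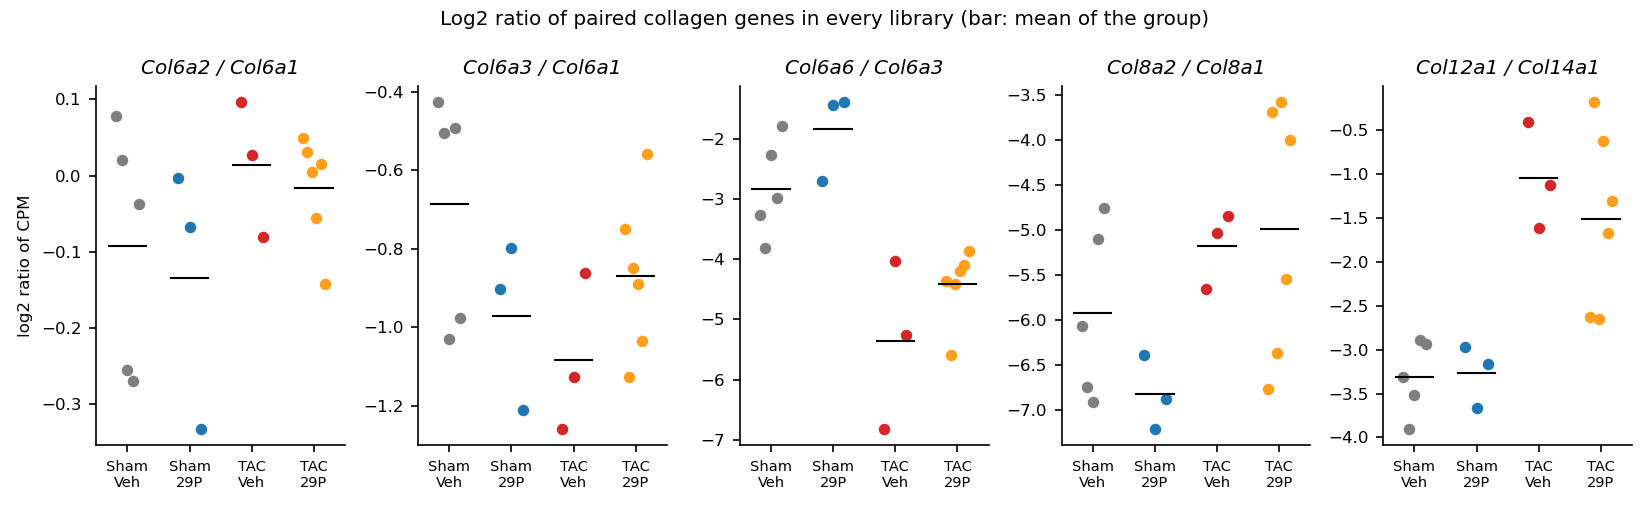
Log2 ratio of CPM for 5 pairs of collagen genes in every library of the 4 groups, with bars at group means and a vertical axis of its own in each panel. The Col6a2 to Col6a1 ratio keeps within −0.33 to 0.10, while Col6a6 to Col6a3 lies lower and Col12a1 to Col14a1 higher in TAC than in Sham without overlap. The other ratios overlap between Sham and TAC.

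Other genes of collagen biology were described by lists, whose counts stand beside the 49.4% of all genes called higher and 3.08% called lower over both treatments. Of the other non-fibrillar collagens, 10 of 17 were tested and 4 were higher over both treatments in TAC against Sham, none lower (limma adjusted p of 0.05 or less, as in the counts that follow), with a median log2 fold change of 0.64 beside 0.36 over all genes. Col13a1 belongs to this list and not to the members. Col18a1, the other multiplexin, rose by 1.30 on the log2 scale (SE 0.19, limma adjusted p = 0.000107), and Col22a1, a FACIT of tissue junctions, by 2.13 (SE 0.67, limma adjusted p = 0.0139). Col9a2 and Col26a1 were also called, with mean CPM of 0.0717 and 0.275 in Sham Veh and 2.36 and 1.86 in TAC Veh, and both were listed at 0 in some libraries, so no fold is given.

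Of the fibrillar collagens, 9 of 10 were tested and 8 were higher (median 1.73), and those with the smallest p were Col5a2 (1.96), Col5a1 (1.59), Col3a1 (1.88) and Col1a1 (2.17). Of 13 collagen receptors 11 were higher (median 0.86), among them the endocytic receptor Mrc2 (1.57), the collagen VI-binding proteoglycan Cspg4 (1.13), the anthrax toxin receptor Antxr1 (1.10) and the integrin chain Itga11 (1.59). Of 10 matrix partners 9 were higher (median 1.09), with Nid1 at 0.76, Bgn at 1.81, Fn1 at 1.73 and Lum at 1.08. Of 22 genes of collagen folding, modification and cross-linking 20 were higher (median 0.80), with Loxl2 at 1.81, P3h1 at 0.95, Loxl1 at 1.76 and Loxl3 at 1.77. None of the genes of these lists was called lower over both treatments. Within TAC, with 29P, Col28a1 (−0.75) and Nid1 (−0.24 on the log2 scale) were lower at an unadjusted p of 0.05 or less, against 0.931% of all genes lower. No other gene of these 5 lists passed, and none passed adjustment. The study named Nid1 as lowered by 29P from these same libraries, so its direction here is not independent evidence.

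Cell type markers were counted in the same comparison, in which 49.4% of all genes were higher with a median log2 fold change of 0.36. All 6 activated fibroblast markers were higher over both treatments in limma after adjustment (median 2.65), and summed to 68.0 to 152 CPM in Sham and 291 to 1689 CPM in TAC libraries. Of the 6 general fibroblast markers 4 were higher (median 0.59, sum 466 to 1364 CPM in Sham, 856.03 to 1457 in TAC), as were 5 of 6 endothelial (median 0.56, sum 1022 to 1974 in Sham, 1409 to 2129 in TAC), 5 of 6 pericyte (median 0.53, sum 955 to 1345 in Sham, 1275 to 1618 in TAC) and 6 of 6 macrophage markers (median 1.03, sum 96.5 to 198 in Sham, 221 to 362 in TAC). Of 5 smooth muscle markers 1 was higher (median 0.34, sum 141 to 457 in Sham, 216 to 453 in TAC). Of 6 cardiomyocyte markers 1 was higher and 1 lower (median −0.17). Of 4 Schwann cell markers tested 2 were lower and none higher (median −0.69), against 3.08% of all genes lower. The sum of the 5 listed was 10.5 to 19.1 CPM in Sham and 12.1 to 18.6 CPM in TAC, so it overlapped and showed no clear fall. With 29P within TAC, 1 of the 4 was higher at an unadjusted p of 0.05 or less in limma, against 1.05% of all genes. Col6a6 was the member called lower in the same TAC comparison, and a link between it and any marker list was not tested. The red blood cell markers were all higher (median 0.95, sum 562 to 2463 in Sham, 1036 to 4992 in TAC). Of the atrial markers Myl7, Sln and Bmp10 were listed at 0 in some libraries, as were Upk3b, Upk1b, Msln and Lrrn4 of the epicardium and Adipoq, Plin1 and Cidec of adipocytes. None of the atrial, epicardial or adipocyte markers was called. The part of these shifts in the collagen changes was not tested.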

How the data were processed

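RNA of the left ventricular apex was sequenced after poly(A) selection (NEBNext Ultra II) by the authors, who used STAR 2.3.7 within Partek Flow for alignment (build mm10, per the submitters' processing notes) and a GENCODE annotation. The counting tool and strand setting are not given in the sources used here. The deposited table holds CPM with a constant of 0.0001 added by the authors to each value, and no read counts were used. Of low values, 78.8 to 81.7% were whole multiples of the smallest step (tolerance 0.02 steps), so counts were not restored. The step gave each library's depth, and estimated reads are CPM times depth and cover counting error only.

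Log2 of the deposited values was fitted with limma 3.58.1 (R 4.3.3), 1 mean per group over all 17 libraries with a variance trend, for 16218 genes with CPM of at least 0.5 in at least 3 libraries. The authors used DESeq2 at p of 0.05 or less, which needs counts. TAC comparisons were called at a Benjamini-Hochberg adjusted p of 0.05, and 29P comparisons at an unadjusted p of 0.05 with the adjusted result beside it. Single genes were also tested by exact two-sided permutation of the absolute difference of group means (scipy 1.17.1, Python 3.11.15). The smallest p is 0.0179 for 3 against 5 libraries and 0.0119 for 6 against 3. Coordinates and exon lengths are from GENCODE vM21, in which 21286 of 21798 symbols were found and 21038 had the same start and end as in the deposited table, whose end positions run 1 base further.

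All 10 members are named. From each list the 4 genes with the smallest p in TAC against Sham over both treatments (among adjusted calls) and the 2 with the smallest p for 29P within TAC (among unadjusted calls) are named, and 3 genes most like each member were found by correlation of deviations from group means. Members and lists were chosen with earlier results of these data known. Each mouse gave 1 library, so replicates are animals. The model was tested on simulated data. The alternatives were 3 other scalings, 2 constants, 2 filters, the groups compared alone, the run of animal numbers, no variance trend and each library left out. Leaving out the 3 libraries with atrial transcripts was added after seeing the data. No per-sample column was left unmapped.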

Additional observations from a re-analysis of the deposited data

Results flagged for a closer look

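Col15a1 was at 272 CPM in TAC 29P library S3, while the other 5 TAC 29P libraries lay between 172 and 198 CPM. It was singled out because its distance to the next library, as a share of the range of the group (0.687 on the log2 scale), was above Dixon's 95% critical value for 6 samples. Of 20 groups tested, 1 was singled out, and chance gives about 1 in 20.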

How the results depend on the processing

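Higher levels of the 9 genes in TAC kept their direction and their side of the threshold in 29P mice and over both treatments under every alternative run. In Veh mice the number called higher was 7 to 9 when single libraries were left out, and fell to 7 without S2, when Col6a3 and Col8a2 were lost and the genes called higher fell from 3648 to 422 of 16218. The number called lower in Veh mice (Col6a6) was 0 without a filter, with the groups compared alone, without a variance trend and without the 3 libraries with atrial transcripts, and 0 to 1 when single libraries were left out.

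For 29P within TAC, the number called higher was 1 (Col6a6) with TMM factors, with median-of-ratios factors, with totals without mitochondrially encoded genes and with the animal-number run as a term, and 0 to 1 when single libraries were left out. The number called lower (Col8a1) was 0 without a variance trend, and 0 to 1 when single libraries were left out. Within Sham, the number called lower (Col6a3) was 0 with the groups compared alone, with the run term, without a variance trend and without the atrial libraries, and 0 to 4 when single libraries were left out. For the difference of the 29P effect, 0 to 1 was called higher when single libraries were left out. The cause of these shifts was not tested.

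Uncalled 29P differences changed sign in places. Col6a3 within TAC went to −0.23 with the run term and −0.021 without the atrial libraries, and ranged from −0.13 to 0.13 when single libraries were left out. Col6a2 (−0.35 to 0.0049) and Col15a1 (−0.43 to 0.028) did so in TAC. Within Sham, Col12a1 went to 0.31 with the run term and 0.021 without the atrial libraries, and the ranges without single libraries were −0.62 to 0.13 for Col6a1, −0.73 to 0.052 for Col6a2, −0.56 to 0.088 for Col15a1 and −0.49 to 0.13 for Col16a1. No replicate number is shared between groups, so the blocking available was the run of animal numbers, given above as the run term.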
